A study of Mus musculus with 4 samples.

Results

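Natural regulatory T cells were compared with naive CD4 T cells, both taken directly from the mouse without culture. Regulatory T cells (Treg) are CD4 T cells that express the transcription factor Foxp3 and restrain immune responses. Both populations came from lymph node and spleen of male Foxp3-GFP transgenic mice (strain B6.Cg-Foxp3tm2Tch/J), in which green fluorescent protein (GFP) reports Foxp3. Natural Treg were sorted as CD4+CD8-GFP+ and naive cells as CD4+CD8-GFP-CD44low. Neither population received any agent, the reporter allele was common to both, and the sources used here give neither the age nor the number of animals behind each array. Each population was measured on 1 Illumina bead array, whose probes are read as brightness, from 550 ng of total RNA, so no difference below has a replicate or a test. The series held 4 arrays, and both of the others were of Treg induced in culture; they entered the joint normalization and no comparison. Of 16590 genes with a named probe, 7582 were compared, those whose probe passed a detection p-value of 0.01 on either of the 2 arrays. Of these, 6874 were detected on both arrays, 555 on the natural Treg array alone and 153 on the naive array alone.

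Treg consume IL-2 through a receptor whose alpha chain, CD25, they carry at high level, and its signal runs through the kinases JAK1 and JAK3 to the factor STAT5. Foxp3 works together with partner factors such as Helios (Ikzf2) and Eos (Ikzf4), and suppression uses surface molecules such as CTLA-4, which removes costimulatory ligands from antigen-presenting cells, and CD73 (Nt5e), which makes adenosine. Naive T cells are resting cells that recirculate through lymphoid organs, depend on IL-7, and express factors of quiescence. GFP in this strain marks Foxp3 expression and does not separate Treg that arose in the thymus from those that arose in peripheral tissue. The gates favour higher Foxp3 and higher Cd44 on the natural Treg array, and Treg identity and the state of the CD44-low gate cannot be told apart here.

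The arrays were similar in overall brightness, with a median deposited intensity of 135 for natural Treg and 132 for naive cells, and detected 7429 and 7027 genes. The differences between them were lopsided. Of the 7582 genes compared, 457 (6.03%) were higher by 2-fold or more on the natural Treg array, and 154 (2.03%) were lower by that much. A gene detected on 1 array alone entered only through the array where it was bright, so the 6874 genes detected on both are the fairer base: 291 of them (4.23%) reached 2-fold above, and 117 (1.7%) reached 2-fold below. In that base 82 genes were higher and 24 lower by more than 2 on the log2 scale, and 31 were higher and 5 lower by more than 3. In the same base a difference above 5 occurred for 6 genes, each higher in natural Treg, of which 1 was a provisional gene model. No gene detected on both arrays was lower by more than 4. Most transcripts were alike, with 84.6% of genes detected on both arrays within 1.5-fold and a median log2 difference of -0.074. Without background correction the count of lower genes was 85.

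**Figure D1:**
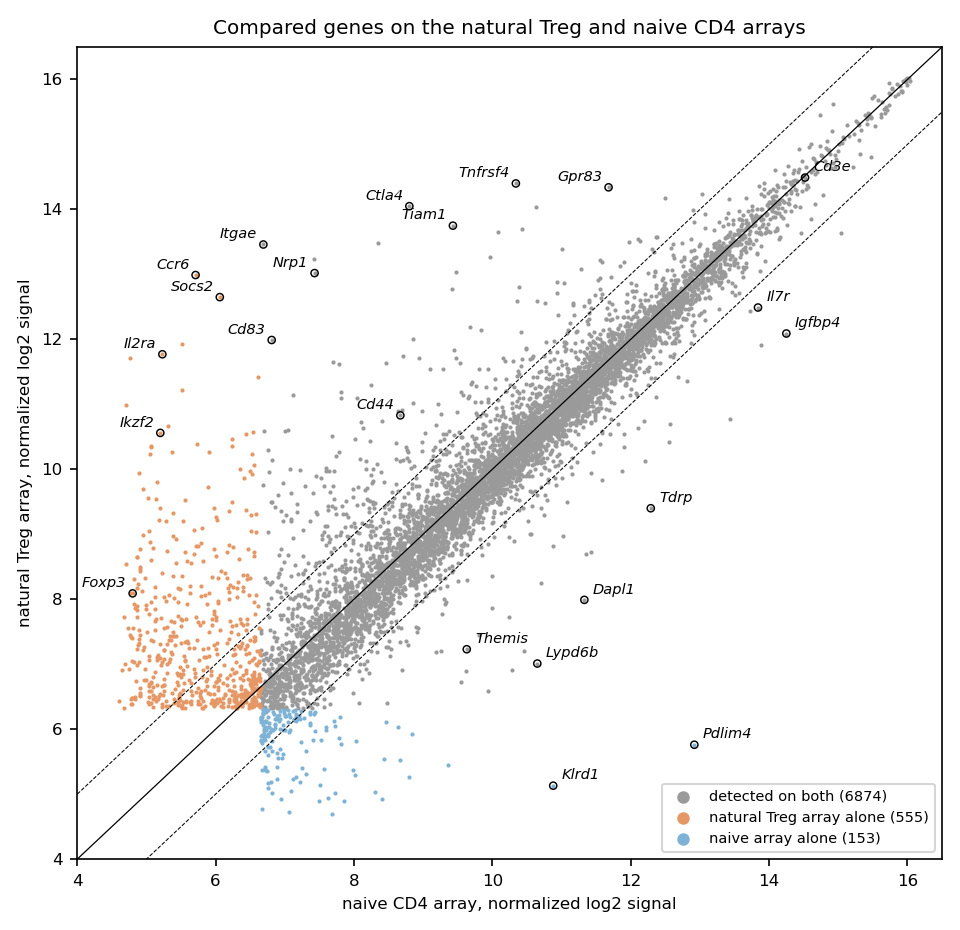
Each point is 1 of 7582 compared genes, placed by its normalized log2 signal on the naive CD4 array (horizontal) and the natural Treg array (vertical); solid line, equal signal; dashed lines, 2-fold. The 555 genes detected on the natural Treg array alone (orange) outnumber the 153 detected on the naive array alone (blue), and named genes far above the line include Itgae, Nrp1 and Ctla4.

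The arrays held CD4 T cells by their defining markers. Each of the 11 CD4 T cell identity genes with a probe was detected on both arrays and within 2-fold, from -0.74 for Cd247 to 0.53 for Cd2. Of the natural Treg markers, 11 of 11 were at least 2-fold higher on the natural Treg array (against 6.03% of all compared genes). Of these, 3 were detected on that array alone and had to be higher, and 8 were detected on both (against 4.23%). The 6 naive markers, detected on both arrays, were below 0, 4 of them by at least 2-fold (against 1.7%). Cd44 itself had a normalized log2 signal of 10.83 in natural Treg and 8.67 in naive cells, a difference of 2.16. A second probe was dim and detected on the natural Treg array alone (7.02). With all probes of the gene averaged, detected or not, the difference was 0.72, under 2-fold.

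Markers of other cells were mostly below detection, with exceptions on both sides. Of 17 B cell and plasma cell markers, 11 were detected on neither array, among them the defining genes Cd79a, Ms4a1 and Pax5, while Cd79b (2.37), Cd74 (1.60) and Xbp1 (1.07) were at least 2-fold higher in natural Treg and H2-Aa (-0.76), H2-Ab1 (-0.58) and H2-Eb1 (-0.35) were below 0. The summed deposited intensity of the B cell list was 10172 for natural Treg and 5923 for naive cells. Of 16 myeloid and dendritic markers, 12 were detected on neither array, including Tyrobp, Lyz2 and Itgam, and the 4 others lay between -0.45 (Siglech) and 0.68 (Lyz1), with sums of 5774 and 4905. The sort had removed CD8 cells, and Cd8a was detected on neither array, but Cd8b1 gave 11.41 in natural Treg and 11.97 in naive cells. Of 15 CD8 T and NK cell markers 10 were detected on neither array, and the list summed to 12338 in natural Treg and 18170 in naive cells. In bulk RNA, fewer cells of a type and less RNA per cell cannot be told apart, and the part of these cells in the differences below was not tested.

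**Figure D2:**
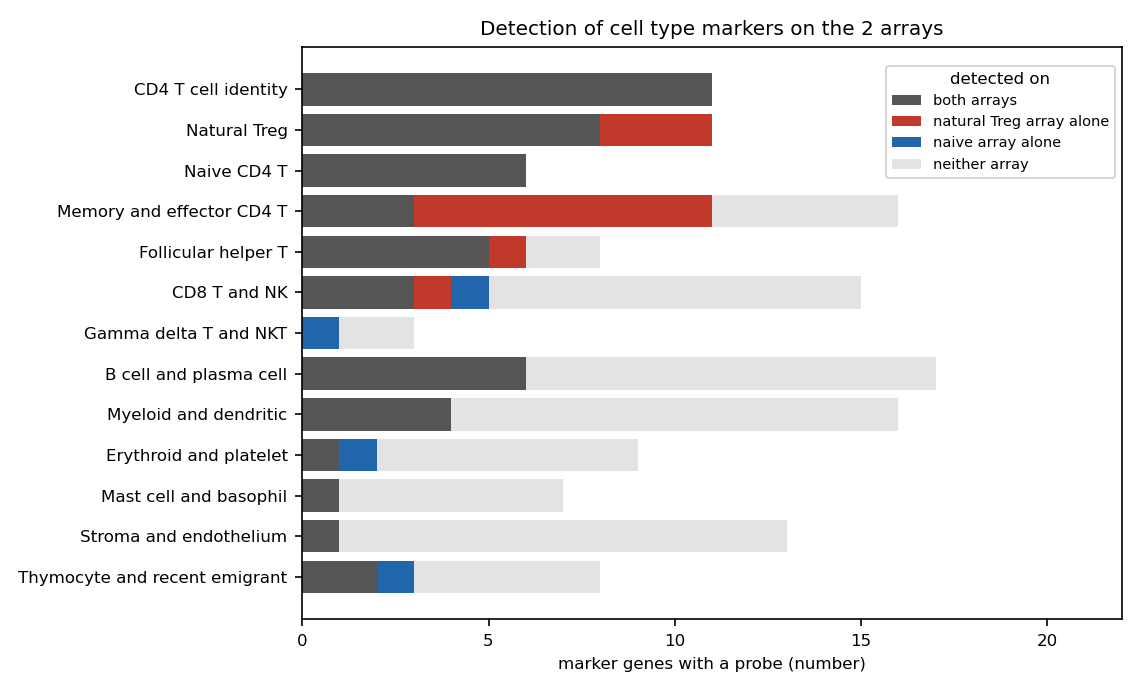
Bars count the marker genes with a probe in each list, coloured by the arrays that detected them at a detection p-value under 0.01. The 11 CD4 T cell identity markers were detected on both arrays, and 11 of 17 B cell and 12 of 16 myeloid markers on neither.

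Foxp3 headed the check of the labels. Its probe ILMN_1225330 read 329.4 in deposited intensity for natural Treg and 101.0 for naive cells, in which it was not detected. In normalized log2 signal these were 8.09 and 4.80, and against the lowest detected signal of the naive array (6.65) Foxp3 was at least 2.72-fold higher in natural Treg. The direction follows the GFP gates, and the probe was dim in both populations, so this bound is small beside those of other markers.

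Treg signature genes, a list of 36 genes known to mark Treg, were nearly uniformly higher in natural Treg. The list was chosen with earlier results of these data known, so its counts are not independent of them. Of the 33 with a probe, 19 were detected on both arrays, 12 on the natural Treg array alone, 0 on the naive array alone and 2 on neither (Entpd1 and Plagl1). The 19 detected on both had a median log2 difference of 3.30, against -0.074 over all genes detected on both. Among them 17 reached 2-fold above (against 4.23% of all genes detected on both) and 0 reached 2-fold below (against 1.7%). The other two were Ndrg1 (0.29) and the kinase gene Ikbkb (-0.55), which was the single member below 0. The 12 detected on the natural Treg array alone had to be higher, and each reached 2-fold as a bound, although with the authors' normalized values Foxp3 (0.90) and the fibrinogen-like gene Fgl2 (0.77) did not.

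The 3 highest differences among the 19 signature genes detected on both arrays, for Itgae, Nrp1 and Ctla4, belonged to surface proteins. Itgae, the alpha chain of the integrin CD103 that binds E-cadherin on epithelium, read 10053.0 in natural Treg and 175.8 in naive cells, or 13.46 and 6.69 in normalized log2 signal, a difference of 6.77. It had 5 further probes, each detected on the natural Treg array alone, with bounds from 1.16 to 6.71, so the direction was common to them and the size of the bound was not. Nrp1, the semaphorin and VEGF co-receptor neuropilin-1, read 7512.7 and 230.7 (13.02 and 7.43, a difference of 5.59), and its second probe differed by 5.54. Ctla4 read 15304.0 and 466.4 (14.05 and 8.80, a difference of 5.25). Nt5e, the CD73 gene, was at 13.66 and 10.08, a difference of 3.57 with 3.53 from its second probe. Both arrays detected each of these genes at its leading probe. The naive signal of Itgae (6.69) lay at the lowest detected signal of that array (6.65), so the size of its difference is limited by that floor.

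**Figure D3:**
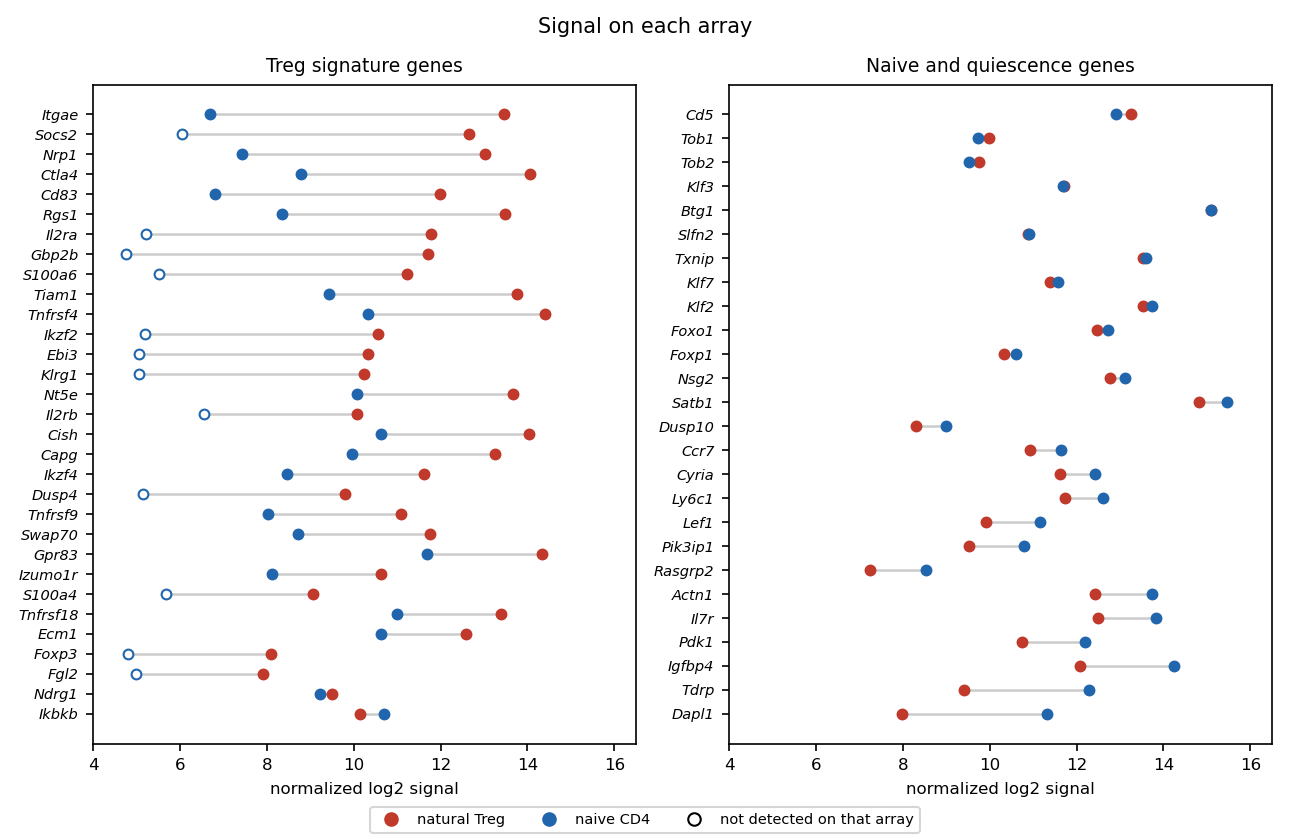
Normalized log2 signal of each compared Treg signature gene (left) and naive and quiescence gene (right) on the natural Treg array (red) and the naive CD4 array (blue), 1 array each; open circles, not detected on that array. Of 31 Treg signature genes 29 lie at least 2-fold higher in natural Treg (against 6.03% of all compared genes). Of those 29, 12 were detected on that array alone and had to be higher. Of 26 naive and quiescence genes, detected on both arrays, 9 lie at least 2-fold lower (against 1.7% of all genes detected on both).

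Further members among the 17 differed by 1.94 to 5.18. Cd83, an immunoglobulin-family surface protein, was at 11.99 and 6.81 (5.18), the G-protein regulator Rgs1 at 13.48 and 8.35 (5.12), and Tiam1, an exchange factor that activates the GTPase Rac, at 13.75 and 9.43 (4.33). The orphan receptor Gpr83 was bright on both arrays, at 14.34 and 11.68 (2.66), and Izumo1r, the folate receptor family member FR4 known as a Treg surface marker, was at 10.63 and 8.13 (2.50). Ecm1, a secreted matrix protein, was at 12.59 and 10.64 (1.94), the smallest of the 17. Detection of these genes in naive cells was fixed by the choice of genes detected on both arrays. The other 12 higher signature genes were not detected in naive cells. The naive signal of Cd83 (6.81) lay near the lowest detected signal of that array (6.65), which limits the size of its difference.

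The genes of the IL-2 receptor alpha and beta chains, and the feedback inhibitor genes Socs2 and Cish, were higher in natural Treg. Il2ra, which encodes CD25 and was not used in the natural Treg sort, read 3216.2 in natural Treg and an undetected 121.2 in naive cells, and was at least 34.8-fold higher. Il2rb, the beta chain, was likewise detected in natural Treg alone, at 10.07 against 6.55 (a bound of 3.42). Among feedback inhibitors of this pathway, Socs2 read 5843.4 against 150.4 and was at least 64.1-fold higher. Cish read 15041.0 and 1529.6, detected on both arrays, a log2 difference of 3.40 (10.6-fold).

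The pathway's shared components did not follow. Of 24 compared JAK-STAT and SOCS genes, Socs2 and Cish were the 2 that reached 2-fold above, and 0 were 2-fold lower. That count is near the 6.03% of all compared genes and no result about the list. Jak1 (-0.66), Jak3 (0.45), Stat3 (0.47), Stat5a (0.78), Socs1 (0.55) and Socs3 (0.14) were within 2-fold, and the median of the 22 detected on both arrays was 0.22. Stat5b was detected on neither array.

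Promoter sequence was set beside these genes because STAT factors bind a palindromic element, TTCNNNGAA. It was searched on both strands in RefSeq windows from 250 bases before to 50 after each start site (GRCm38.p6), which were matched for 6296 of the 7582 compared genes. The letters occurred in 8.3% of all 32851 windows, in 6.9% of the windows of compared genes, in 9.1% of those of the higher genes (45 of 493) and in 5.9% of those of the lower genes (10 of 170). These shares lie close together, and a match is a description of letters, not of binding. The windows below were picked after the search, as those of an IL-2 pathway inhibitor, of Foxp3 and of Treg receptors that hold the letters, and capitals mark the element. Other windows of Foxp3 and Ccr6 held none, and the windows searched for Il2ra, Nrp1, Ctla4 and Tnfrsf4 held none.
Foxp3, chrX:7580233-7580532, plus strand: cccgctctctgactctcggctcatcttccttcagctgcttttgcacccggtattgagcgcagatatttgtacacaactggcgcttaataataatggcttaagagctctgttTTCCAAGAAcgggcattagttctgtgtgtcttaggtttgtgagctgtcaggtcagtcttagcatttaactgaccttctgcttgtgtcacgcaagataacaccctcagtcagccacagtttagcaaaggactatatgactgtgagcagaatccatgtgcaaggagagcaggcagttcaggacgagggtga
Cish, chr9:107296409-107296708, plus strand: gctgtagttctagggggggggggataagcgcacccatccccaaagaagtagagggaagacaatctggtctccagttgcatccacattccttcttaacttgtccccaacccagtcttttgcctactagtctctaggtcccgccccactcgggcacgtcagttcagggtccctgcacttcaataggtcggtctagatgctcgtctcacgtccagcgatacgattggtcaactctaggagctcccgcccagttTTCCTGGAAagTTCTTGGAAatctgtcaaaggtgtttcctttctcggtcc
Tnfrsf18, chr4:156026072-156026371, plus strand: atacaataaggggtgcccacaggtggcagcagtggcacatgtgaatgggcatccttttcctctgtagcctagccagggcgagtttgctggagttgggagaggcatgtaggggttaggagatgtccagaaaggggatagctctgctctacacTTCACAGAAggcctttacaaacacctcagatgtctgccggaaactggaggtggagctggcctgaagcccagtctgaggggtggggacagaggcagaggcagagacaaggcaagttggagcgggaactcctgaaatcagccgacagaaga
Ccr6, chr17:8235793-8236092, plus strand: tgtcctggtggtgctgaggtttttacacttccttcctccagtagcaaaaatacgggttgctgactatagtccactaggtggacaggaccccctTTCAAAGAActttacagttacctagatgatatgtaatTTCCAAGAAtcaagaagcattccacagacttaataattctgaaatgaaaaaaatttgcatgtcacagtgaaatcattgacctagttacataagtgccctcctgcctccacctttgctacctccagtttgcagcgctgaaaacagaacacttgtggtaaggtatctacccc
The element starts at base -139 from the start site in the Foxp3 window, at bases 1 and 12 in the Cish window, at -99 in the Tnfrsf18 window, and at -157 and -120 in the Ccr6 window. Of the 4 genes, Cish was 10.6-fold and Tnfrsf18 5.25-fold higher in natural Treg, Ccr6 at least 81.0-fold and Foxp3 at least 2.72-fold.

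Costimulatory receptors of the TNF family formed a split family. Of 26 members with a probe, 13 were compared; 4 reached 2-fold above (against 6.03% of all compared genes) and 0 below. Tnfrsf4, which encodes OX40, read 18945.6 and 1264.9 (14.40 and 10.34, a difference of 4.06). Tnfrsf9, which encodes 4-1BB, was at 11.09 and 8.04 (3.05). Tnfrsf18, which encodes GITR, read 9522.5 and 1959.8 (2.39), and Tnfrsf13b, which encodes TACI, was dim at 8.22 and 6.94 (1.29). The death receptor gene Fas (0.55), Cd27 (0.40) and Tnfrsf25 (0.32) were within 2-fold, and Tnfrsf10b was at -0.99. Of the 28 genes of the TRAF and NF-kB pathway, through which these receptors signal, 2 reached 2-fold (Traf1 at 1.36 and Rel at 1.08), which is near the 6.03% of all compared genes and no result about the pathway. Its median was 0.33.

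Of 12 compared suppressive effector genes 9 reached 2-fold above (against 6.03% of all compared genes) and 0 below. Of these genes 7 were detected on both arrays, 4 of them at 2-fold (against 4.23%), with a median of 1.39 that became 2.48 at a detection p-value under 0.05. Lag3, an inhibitory receptor that binds MHC class II, was at 10.60 and 7.04 (3.56). Il10, which encodes the suppressive cytokine IL-10, was detected in natural Treg alone (9.05 against 5.04, at least 5.28-fold), as was Ebi3, a subunit of IL-35 (10.34 against 5.07, at least 13.0-fold). Tgfb1 (0.37) and Cd274, the gene of PD-L1 (0.50), were within 2-fold. Granzyme genes Gzma and Gzmb were detected on neither array, and the pore-forming gene Prf1 was at -0.70 with a second probe at -2.17.

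Among checkpoint and costimulatory receptors, 8 of 16 compared reached 2-fold above (against 6.03%) and 0 below. This list and the suppressive effector list share Ctla4 with the Treg signature, so their counts are not fully separate observations. Of the 12 detected on both arrays, 6 reached 2-fold (against 4.23%) and 11 were above 0. Icos, a costimulator of the CD28 family, was at 12.81 and 10.39 (2.42), Cd160 at 9.63 and 7.41 (2.22) and Cd200 at 9.13 and 7.61 (1.51). Cd28 itself (-0.05) and the inhibitory receptor gene Btla (0.10) were nearly equal on the arrays. Pdcd1, the gene of PD-1, was near the detection limit in natural Treg (6.91) and was not detected in naive cells.

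Transcription factors divided into a minority past 2-fold and a majority within it. Of 31 compared, 10 reached 2-fold above (against 6.03%) and 2 below (against 2.03%). In the 23 detected on both arrays the counts were 6 (against 4.23%) and 2 (against 1.7%), 10 were above 0 and 13 below, and the median was -0.11. Ikzf2, the Helios gene, read 1426.1 in natural Treg and 120.0 in naive cells, where it was not detected, at least 15.0-fold higher. Its relative Ikzf4, the Eos gene, was at 11.63 and 8.46, a difference of 3.17, or 1.68 when the probes of the gene were averaged. Ikzf1 went the other way, at 11.41 and 12.35 (-0.95), so members of this zinc finger family differed in direction. Ikzf5 was at -0.29.

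Further factors of that list that reached 2-fold above were these. Irf4, an activator of effector Treg programmes, was at 11.55 and 9.10 (2.45), Rora at 10.26 and 7.79 (2.47), Gfi1 at 11.28 and 9.76 (1.53), Hif1a at 10.43 and 9.24 (1.19) and the AP-1 family member Batf at 10.87 and 9.76 (1.11). Nfil3 (10.55 against 6.44) and Bhlhe40 (10.27 against 5.37) were detected in natural Treg alone, with bounds of 3.90 and 3.62. Of other factors of helper T cell lineages, Gata3 (0.78), Bcl6 (0.33) and Runx1 (-0.13) were within 2-fold. Tbx21 was near the detection limit in natural Treg (7.08). The 2 lower factors were the Wnt pathway factor Lef1 (9.92 and 11.15, a difference of -1.23) and Pou2af1 (-1.17).

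**Figure D4:**
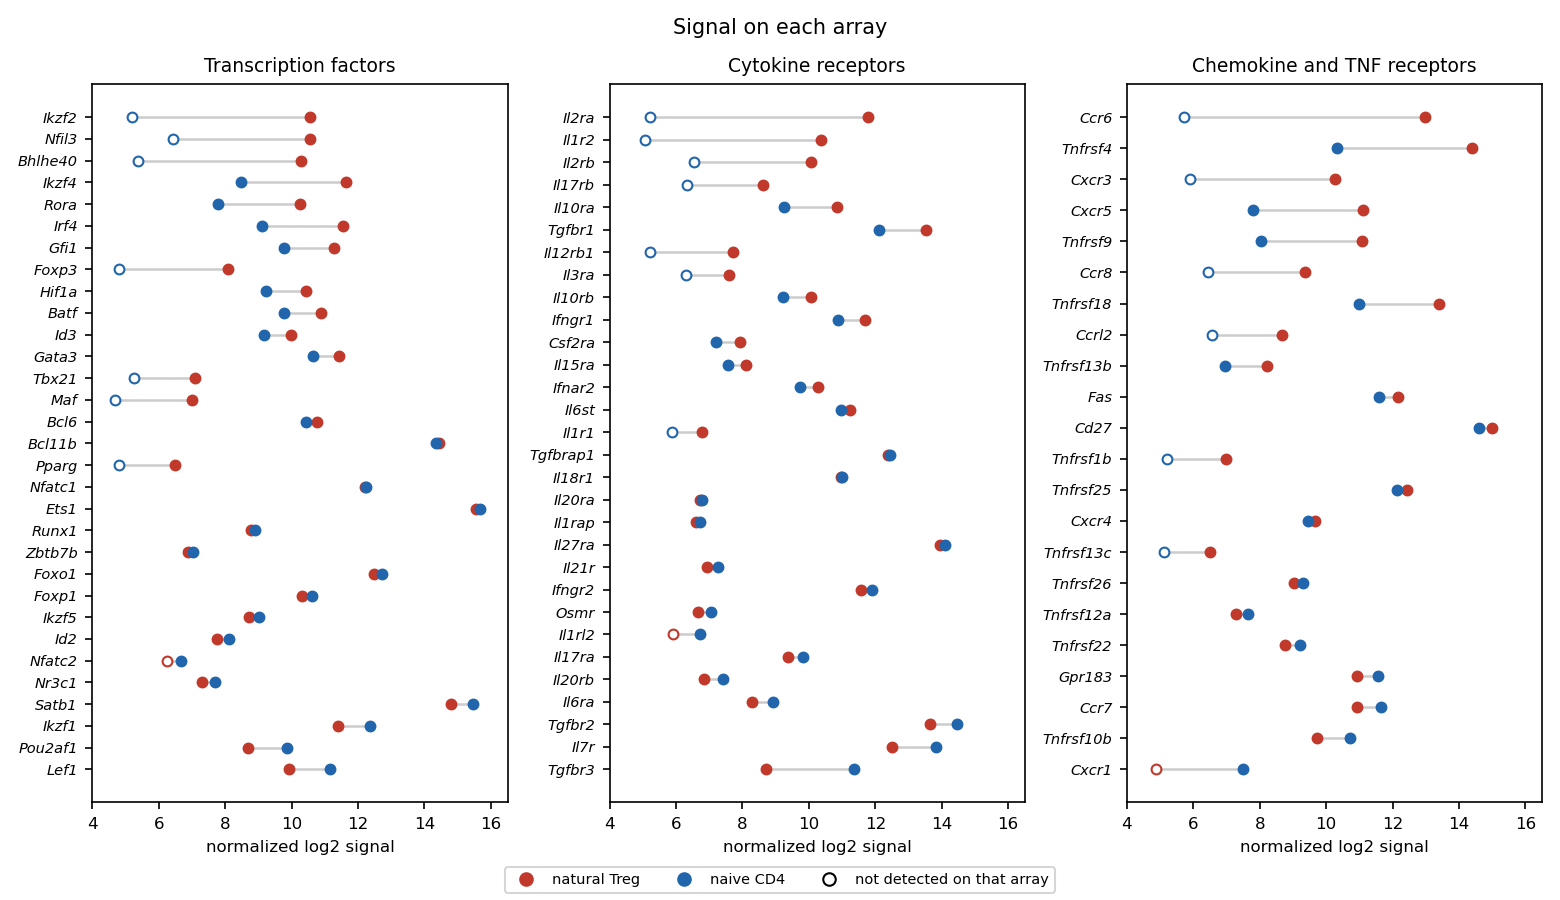
Normalized log2 signal of the compared transcription factors (left), cytokine receptors (middle) and chemokine and TNF family receptors (right) on the natural Treg array (red) and the naive CD4 array (blue); open circles, not detected on that array. Ikzf2, Il2ra and Ccr6 lead their panels, and Lef1, Tgfbr3 and Cxcr1 stand at the lower end.

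Cytokine receptors differed in both directions. Of 30 compared, 7 reached 2-fold above (against 6.03%) and 2 below (against 2.03%). Those detected in natural Treg alone had to be higher. Of the 22 detected on both arrays, 2 reached 2-fold above (against 4.23%) and 2 below (against 1.7%), and the median was -0.08. Apart from Il2ra and Il2rb, the higher ones included Il1r2, a decoy receptor for IL-1 (at least 13.2-fold, by detection in natural Treg alone). The rest were Il17rb (a bound of 1.97), Il10ra (1.58), Tgfbr1 (1.44) and Il12rb1 (a bound of 1.06). Tgfbr1 was at 0.99 when its probes were averaged, just under 2-fold. The lower ones were Tgfbr3, the TGF-beta co-receptor betaglycan, at 8.70 and 11.36 (-2.66), and the IL-7 receptor alpha chain gene Il7r at 12.49 and 13.84 (-1.35), whose second detected probe differed by -1.40. Of the TGF-beta receptors, Tgfbr2 was at -0.82, so its chains ran in different directions.

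Chemokine receptors past 2-fold were mostly measured on 1 array alone. Of 9 compared, 5 reached 2-fold above (against 6.03%), 4 of them detected in natural Treg alone, and Cxcr1, detected in naive cells alone, reached 2-fold below (against 2.03%). Of the 4 detected on both arrays, 2 were above and 2 below 0, with a median of -0.21. Ccr6, the receptor for CCL20 in mucosa and skin, read 7337.6 in natural Treg and 138.4 in naive cells, not detected there, at least 81.0-fold higher, and its second probe gave a bound of 3.94. Cxcr3, a receptor for interferon-induced chemokines, was at least 12.2-fold higher and Ccr8 had a bound of 2.72. Cxcr5, which guides cells to B cell follicles, was detected on both arrays at 11.10 and 7.81 (3.29). Ccr7, which brings T cells into lymph nodes, was at 10.93 and 11.64 (-0.71), and Cxcr4 was at 0.21.

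Genes known from effector and tissue Treg were mostly higher. Of 31 compared, 23 reached 2-fold above (against 6.03%) and 0 below; for the 18 detected on both arrays the count was 13 (against 4.23%) and the median 1.77, or 1.28 with probes averaged. This list shares Itgae, Nrp1, Tnfrsf4 and other members with the signature above, so it is not a separate observation. Among its other members Klrg1, an inhibitory lectin receptor, was detected in natural Treg alone (10.23 against 5.05, a bound of 3.58). Some S100, annexin and cytoskeletal genes were higher as well. S100a6 was at least 23.8-fold higher, Anxa2 was at 12.77 and 9.42 (3.35), its binding partner S100a10 at 12.70 and 11.59 (1.11), the large scaffold gene Ahnak at 12.01 and 8.85 (3.16), the actin-capping gene Capg at 13.26 and 9.96 (3.30) and Lgals1, the galectin-1 gene, at 12.56 and 11.17 (1.39). In that list of cytoskeletal and calcium-binding genes 11 of 20 reached 2-fold (against 6.03%), and 7 of the 16 detected on both arrays (against 4.23%). The median of those 16 was 0.41, or 0.10 with no detection filter, and Anxa5 (-0.12), Anxa6 (-0.27) and Emp3 (-0.28) were nearly equal on the arrays.

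Naive and quiescence genes leaned the other way. All 26 that were compared were detected on both arrays, 9 (against 1.7% of all genes detected on both) were at least 2-fold lower in natural Treg, 0 were 2-fold higher, 21 were below 0, and the median was -0.67. Dapl1, a gene known from naive T cells, read 313.5 in natural Treg and 2437.0 in naive cells, or 7.99 and 11.33, a difference of -3.34. Tdrp was at 9.40 and 12.29 (-2.89). Igfbp4, an insulin-like growth factor binding protein, read 4021.7 and 18326.8 (12.09 and 14.25, a difference of -2.15), and its second probe differed by -2.35. Pdk1, a kinase that inhibits pyruvate dehydrogenase, was at -1.44, the cytoskeletal gene Actn1 at -1.30, Rasgrp2 at -1.29 and Pik3ip1, an inhibitor of PI3 kinase, at -1.26. Rasgrp2 was at -0.91 with the authors' normalized values. Several textbook quiescence factors were nearly equal: Klf2 was at -0.21, Foxo1 at -0.25, Foxp1 at -0.29 and Btg1 at 0.00.

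Outside that list the lowest named genes detected on both arrays had varied roles. Lypd6b, a member of the Ly6 and uPAR domain family, read 209.0 in natural Treg and 1561.6 in naive cells (7.01 and 10.65, a difference of -3.65). Nacc2 was at -3.38 and Als2cl at -3.34. The kinase gene Sgk1 was bright in both, at 10.78 and 13.43 (-2.64). Pdlim4, a PDZ and LIM domain protein, read 7089.7 in naive cells and was not detected in natural Treg (142.7), with a bound of -6.61 on the log2 scale. Klrd1, which encodes the killer lectin receptor chain CD94, read 1801.8 in naive cells and 118.6 in natural Treg, not detected there, with a bound of -4.56. Klrk1 and Ncr1, other receptor genes of NK cells, were detected on neither array.

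The T cell receptor machinery was almost level. Of 33 compared genes of the receptor complex and its proximal signalling, 0 were at least 2-fold higher (against 6.03% of all compared genes) and 2 lower (against 2.03%). The median of the 32 detected on both arrays was -0.07, next to -0.074 over all genes. Cd3d (0.07), Cd3e (-0.03), Cd3g (-0.12), Zap70 (0.12) and Lat (-0.30) were near 0. Themis, a scaffold best known from thymocyte selection, was at 7.23 and 9.63 (-2.40), and the adaptor gene Grap2 at 7.35 and 8.50 (-1.15).

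Genes induced by that receptor were higher in part. Of 26 compared immediate early and TCR-induced genes, 8 reached 2-fold above (against 6.03%) and 0 below. Of the 21 detected on both arrays, 7 reached 2-fold (against 4.23%) and 19 were above 0, with a median of 0.41. Fos, a subunit of AP-1, was at 11.63 and 9.53 (2.10), the phosphatase gene Dusp1 at 12.88 and 10.93 (1.95), Gadd45b at 9.34 and 7.45 (1.89), Junb at 12.96 and 11.71 (1.26) and Egr2 at 11.96 and 10.78 (1.18). Egr1 (0.40), Myc (0.21) and the activation marker Cd69 (-0.13) were within 2-fold, and Nr4a1 and Nr4a3 were detected on neither array. The time between tissue collection and lysis of each sample is not known from the sources used here, and its part in these early genes was not tested.

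Of 35 compared cell cycle genes, 11 reached 2-fold above (against 6.03%) and 0 below. Of the 27 detected on both arrays, 23 were above 0 and 8 reached 2-fold (against 4.23%), with a median of 0.67. Birc5, the gene of survivin, was at 9.24 and 7.09 (2.15), the spindle gene Nusap1 at 8.94 and 7.12 (1.83), Uhrf1, which brings DNA methylation to newly copied DNA, at 11.01 and 9.21 (1.80), and the topoisomerase gene Top2a at 9.41 and 8.29 (1.12). Tk1, thymidine kinase, was detected in natural Treg alone with a bound of 2.76. The replication genes Mcm2 (0.06), Mcm4 (0.12) and Pcna (-0.32) were close to level.

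Of 21 compared glycolysis and HIF target genes, 7 reached 2-fold above (against 6.03%) and 1 below (against 2.03%). Of the 19 detected on both arrays, 5 reached 2-fold above (against 4.23%), with a median of 0.22. Hk2, the inducible hexokinase, was at 9.76 and 6.68 (3.08), the glucose transporter gene Slc2a3 at 12.38 and 11.18 (1.21), Tpi1 at 12.10 and 11.08 (1.02), while Ldha (-0.02), Pkm (0.22) and Slc2a1 (0.14) were nearly equal. The lists also held 70 compared oxidative phosphorylation subunits, 22 sterol and fatty acid synthesis genes, 40 proteasome subunits and 55 cytosolic ribosomal proteins. In these lists 0 reached 2-fold above (against 6.03%) or below (against 2.03%). Their medians lay between -0.05 and 0.10. The reference genes Actb (0.20), Hprt (0.09) and B2m (0.03) were level, and Gapdh was at 0.50.

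Interferon response genes were near balance, with 12 above and 16 below 0 among the 28 detected on both arrays and a median of -0.15. Gbp3, an interferon-induced GTPase, was at 12.59 and 10.36 (2.23) and the antiviral synthetase gene Oas2 at 10.63 and 12.11 (-1.48), and the other 27 compared did not reach 2-fold. The guanylate-binding protein genes, a family picked after its values were seen, did not all lie on 1 side. The 5 detected on both arrays were above 0, with a median of 0.65, and Gbp5 was at 1.24 and Gbp2 at 0.21. Gbp2b was detected in natural Treg alone (11.71 against 4.76, at least 33.5-fold higher), and Gbp11 in naive cells alone (7.81 against 5.77, a bound of -1.5). Regulators of G-protein and MAP kinase signalling were higher at few members. Of 8 compared RGS genes, Rgs1, Rgs16 (3.89) and Rgs9 (a bound of 3.30) reached 2-fold above (against 6.03% of all compared genes). Of 13 compared DUSP phosphatases, Dusp1, Dusp4 (a bound of 3.16) and Dusp16 (1.38) did. For genes detected on both arrays the counts were 2 of 7 and 2 of 11 (against 4.23%), with medians of 0.49 and -0.15. Enzymes that write or read DNA methylation and histone marks did not reach 2-fold apart from Uhrf1, with Dnmt1 at -0.14, Dnmt3b at -0.12, Ezh2 at 0.38 and Kdm6b at 0.21.

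**Figure D5:**
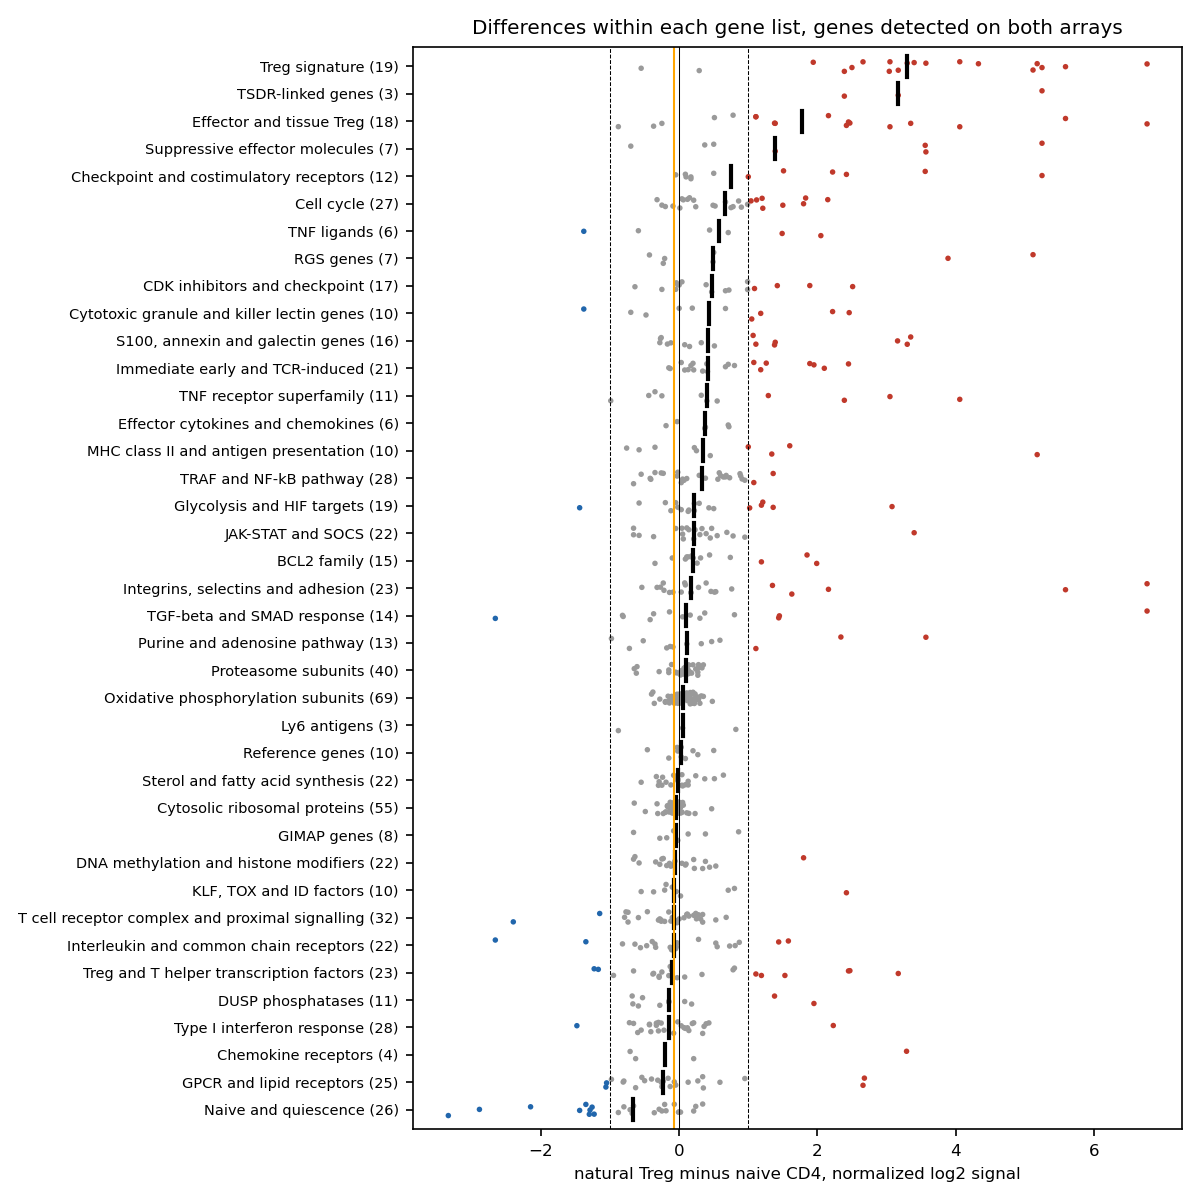
Each point is a gene detected on both arrays, placed by its natural Treg minus naive CD4 difference in normalized log2 signal, in rows by gene list with the number of points in brackets; black bars, list medians; orange line, median of all genes detected on both; dashed lines, 2-fold; TSDR-linked genes are those known to hold Treg-specific demethylated regions. The Treg signature has the highest median (3.30) and the naive and quiescence list the lowest (-0.67), and the ribosomal, proteasome and oxidative phosphorylation lists cluster around 0.

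Different probes of a gene gave the only internal check of these differences, and they share the RNA, its labelling and the array. Across 2453 pairs of probes detected on both arrays, the median disagreement of the difference was 0.14 on the log2 scale, and 93.8% of pairs were within 0.5. Where the leading probe was past 2-fold in such a pair, the other probe had the same direction in 82 of 84 pairs and was itself past 2-fold the same way in 62. The share past 2-fold differed with brightness. Of the 250 genes detected on both arrays with a mean log2 signal under 7, 0.0% reached 2-fold above and 1.6% below. The lowest detected signals were 6.65 on the naive array and 6.31 on the natural Treg array. A gene 2-fold above could therefore not have a mean under 7, and a gene 2-fold below had little room to. The shares under 7 thus cannot tell how reliable dim genes are. Of genes with a mean log2 signal of 7 to 9, 6.61% reached 2-fold above and 2.98% 2-fold below, against 4.4% and 1.6% of genes at 9 to 11 and 2.65% and 0.81% of genes at 11 or more.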

How the data were processed

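Per the file headers, the authors deposited linear intensities with detection p-values for 25697 probes, and a second table of log2 values that quantile normalization of log2 intensity gave back. The submitters' processing notes name GenomeStudio 2011.1, and background subtraction by it is not stated. The neqc function of limma 3.58.1 in R 4.3.3 corrected background, with offset 16 and negative controls inferred from detection p-values, and quantile-normalized the log2 signal of the 4 arrays together. Later steps used Python 3.11.15, numpy 2.4.6 and pandas 2.3.3, with plots from matplotlib 3.10.9. Probes were named through the platform annotation and RefSeq symbols (23978 of 25697), and a gene took its probe with the highest mean signal. For a gene that 1 array missed, the missing side was raised to the array's lowest detected signal if it lay below it. Its fold is then a lower bound, and a bound against the detected side was set to 0. Differences are natural Treg minus naive CD4. With 1 array per population no test was run, and the number of arrays limits precision. The members, the 39 gene lists and the 13 marker lists were chosen with earlier results of these data known. Genes were named as the 20 highest and 20 lowest detected on both arrays, the 10 largest bounds in each direction, and members of the lists; provisional gene models were counted and not named. Promoter windows on chromosome 18 were left out. Steps were tested on simulated arrays, and 9 alternative settings were run.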

Additional observations from a re-analysis of the deposited data

Results flagged for a closer look

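Probes without a gene name were left out of the comparison above. Of 1719 such probes 673 were detected on at least 1 of the 2 arrays. Of these, 29 (4.31%, against 6.03% of all compared genes) were at least 2-fold higher in natural Treg. Another 13 (1.93%, against 2.03%) were at least 2-fold lower. Among the 595 detected on both arrays 12 were higher and 12 lower, against 4.23% and 1.7% of genes detected on both. The highest was probe ILMN_2725927, at 12.32 in natural Treg and 8.05 in naive cells (4.27), and the lowest was ILMN_2945940, at 8.13 and 10.57 (-2.44). With no replicate their reliability was not tested.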

How the results depend on the processing

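No paired analysis was possible because each population had 1 array, and for the same reason no replicate could be left out. Over 9 alternatives the count of genes at least 2-fold higher ran from 291, when detection on both arrays was required, to 667 with no detection filter, against 457. The count of lower genes was 85 both without background correction and with the authors' normalized values, and up to 228 with no detection filter, against 154. Treg signature genes at 2-fold numbered 17 with detection on both arrays, and 27 to 29 otherwise; naive and quiescence genes at 2-fold lower numbered 8 or 9. Higher genes made up 71.3% to 79.5% of calls, against 74.8%. No gene past 2-fold in the reported setting had the opposite sign in any alternative. A bound could not change sign by its definition, and every alternative used the same arrays. Of 180 named or listed genes past 2-fold, 35 were under it in at least 1 alternative. The median of the Treg signature ran from 3.12 to 3.52 and that of naive and quiescence genes from -0.75 to -0.51. A list median or gene counted as moved when it shifted by more than 0.24 on the log2 scale, a margin from probe disagreement, and the cause of such shifts was not tested. The CD8 T and NK marker median changed sign at a detection p-value under 0.05 (0.033), and the myeloid median with no detection filter (-0.004). The chemokine receptor median of -0.21 became 1.16 at a detection p-value under 0.05 and 0.061 with no filter. Smaller medians also changed sign. With no filter, cytokine receptors went from -0.08 to 0.032 and transcription factors from -0.11 to 0.089. At a detection p-value under 0.05, the purine pathway went from 0.11 to -0.091 and Ly6 antigens from 0.05 to -0.157. With median centring, oxidative phosphorylation subunits went from 0.05 to -0.024 and reference genes from 0.03 to -0.064, and the latter to -0.121 with probes averaged. Dim genes rest on the offset and on bounds, so their folds are the least certain.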

Other observations

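Several gene families outside the lists above were looked at after their values had been seen. Among core histone genes, 38 of 60 were compared. Of these, 9 were at least 2-fold higher in natural Treg (against 6.03% of all compared genes) and 2 lower (against 2.03%). The 9 were all of the H2A family, among them H2ac10 (12.87 and 11.03, a difference of 1.84), H2ac22 (1.80), H2ac24 (1.68) and the variant H2az1 (13.13 and 11.85, a difference of 1.28), while H3 and H4 genes such as H3c13 (0.04), H3c4 (-0.19) and H4c3 (-0.73) were within 2-fold. The replicated H2A genes are near-identical in sequence, so the values of single members are uncertain. The 2 lower were H2bc18 (-1.22) and H2aj (-1.01).

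Of 8 interferon regulatory factor genes, 3 were at least 2-fold higher (against 6.03% of all compared genes). They were Irf4 (2.45), Irf8 (9.37 and 7.63, a difference of 1.74) and Irf5 (detected in natural Treg alone, a bound of 2.57). The other 5 lay between -0.30 and 0.14. Of 13 compared caspase and inflammasome genes 3 reached 2-fold above (against 6.03%). Of the 11 detected on both arrays, however, 1 did (against 4.23%), 5 were above and 6 below 0, and the median was -0.02. Casp1, which cleaves pro-IL-1 beta, was at 11.30 and 8.25 (3.05) and Casp4 was detected in natural Treg alone (a bound of 3.36), while Casp8 (0.18), Casp9 (-0.03) and Casp6 (0.08) were near 0. The glutathione transferase gene Gsta4 read 1457.6 and 195.1 in deposited intensity (3.58) and Gsto1 at 11.55 and 9.28 (2.27), with Gstp1 at 0.17 and Gstm4 at 0.00. Lower in natural Treg were the semaphorin genes Sema4a (11.92 and 13.89, a difference of -1.97) and Sema4f (-1.54) and the sialyltransferase genes St3gal6 (8.98 and 11.02, a difference of -2.04) and St8sia1 (-1.78), whereas St3gal2 was at 1.35. The promoter windows of genes at least 2-fold higher held the AP-1 letters TGANTCA in 8.5% and the ETS letters CCGGAAGT in 2.4%, searched on both strands. The shares were 4.8% and 9.0% in windows of compared genes, 4.7% and 4.1% in those of the lower genes, and 7.8% and 3.9% in all windows. An ETS share under that of compared genes was thus not particular to the higher genes. Any pair of the STAT, AP-1 and ETS elements overlapped in 34 of 32851 windows.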
